A study of Mus musculus with 7 samples.

Results

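The replication and S-phase genes described here are 42 genes whose products license, fire and copy DNA, taken by name for these roles. All 42 were found among the 55401 genes of the count table, and all 42 were among the 17465 genes that passed the filter on low counts. They were measured by RNA-seq in the right lung lobes of 7 male C57BL/6 mice aged 6 to 8 weeks, 1 library per mouse. Every mouse had received bleomycin into the lung, a cytotoxic antibiotic that injures the tissue and starts fibrosis, so no uninjured lung is part of the comparison. In 3 of the mice (BLM+HBO), hyperbaric oxygen (HBO) at 2.5 ATA was given for 90 min per day on 14 days from day 7 on, and the other 4 mice (BLM) were their controls. All lungs were collected on day 21. The sample records say that the BLM mice sat in the chamber without pressurized oxygen, while the study's methods call them untreated. The study left out mice that had lost too little weight after bleomycin. Libraries held from 18157161 to 26365969 counts, and the deepest was that of BLM+HBO 3.

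Before a cell can copy its DNA, the origin recognition complex, CDC6 and CDT1 load the MCM2-7 ring onto each origin, and CDC45 and the GINS complex then turn the ring into an active helicase. DNA polymerase alpha with primase starts each strand, the PCNA clamp holds the copying polymerases in place, and ribonucleotide reductase, thymidylate synthase and thymidine kinase supply the nucleotides. E2F factors switch on most of these genes at the end of G1, cyclin E helps to fire origins, and chromatin assembly factor 1 places histones behind the fork. In an adult lung most cells rest, and repair after injury brings epithelial cells, fibroblasts, endothelial cells and immune cells into the cycle. Whole lobes were sequenced, so fewer cells of a type and less RNA per cell cannot be told apart.

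The promoters of these genes are known for E2F sites, which the choice of genes did not use. In the RefSeq promoters of the mouse genome GRCm38.p6, from 250 bases before to 50 bases after each start, the 4 forms TTTCCCGC, TTTGGCGC, TTTCGCGC and TTTGCCGC were searched on both strands, and matches were allowed to overlap. Only exact matches were counted, so a promoter without a match can still hold a site with other letters. A gene counted when any of its promoters held a match. Of the 35 genes with a promoter entry 14 held a match (40.0%), against 704 of all 27025 genes with an entry (2.6%). Among 38 other replication genes, described below, 7 of the 29 with an entry held a match (24.1%). Among 28 mitosis genes, 1 of the 24 with an entry did (4.17%). Matches were found in 4 of the 5 MCM2-7 genes with an entry (80.0%) and in 0 of the 4 nucleotide synthesis genes. The 180 bases before the start are shown for *Mcm5*, *Mcm6* and *Cdc6*, which hold matches in the helicase and its loader, and for *Rrm1*, the gene with the smallest P among the 42. Capitals mark the matches. In *Mcm5* (chr8:75109329-75109508, plus strand) and at the first place in *Mcm6* (chr1:128359706-128359885, minus strand), matches on opposite strands overlap in 1 run. *Cdc6* (chr11:98907971-98908150, plus strand) holds 1 match on the reverse strand, and *Rrm1* (chr7:102441515-102441694, plus strand) holds no exact match. The *Rrm1* stretch does hold gttcccgc, which differs from TTTCCCGC in the first letter.
Mcm5: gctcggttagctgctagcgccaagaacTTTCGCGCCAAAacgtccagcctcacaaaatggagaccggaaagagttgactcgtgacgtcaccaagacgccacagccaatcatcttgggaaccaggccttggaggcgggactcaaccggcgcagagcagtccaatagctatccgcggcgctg
Mcm6: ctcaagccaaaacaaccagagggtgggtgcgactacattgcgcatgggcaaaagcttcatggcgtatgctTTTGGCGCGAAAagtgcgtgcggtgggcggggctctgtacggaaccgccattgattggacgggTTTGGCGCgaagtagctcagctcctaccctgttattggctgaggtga
Cdc6: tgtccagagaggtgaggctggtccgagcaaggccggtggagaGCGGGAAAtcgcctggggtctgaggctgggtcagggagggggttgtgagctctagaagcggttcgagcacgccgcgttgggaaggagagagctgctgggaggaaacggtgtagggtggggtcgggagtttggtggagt
Rrm1: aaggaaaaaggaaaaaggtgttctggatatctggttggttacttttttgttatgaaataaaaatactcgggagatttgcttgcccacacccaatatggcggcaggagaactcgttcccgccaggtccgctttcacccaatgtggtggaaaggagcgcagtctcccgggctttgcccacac
The change with HBO was described on both sides of this feature. The median log2 fold change was -0.02 over the 14 genes with a match and -0.16 over the 21 genes without, and the mean was lower in BLM+HBO for 9 and 14 of them, respectively. The difference was not tested.

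The replication genes gave no call between BLM+HBO and BLM lungs. A gene was called when it changed more than 1.5-fold and its unadjusted P was below 0.05. Of the 42 genes, 0 were called lower and 0 higher in BLM+HBO by edgeR's quasi-likelihood test, which called 2.89% of all tested genes lower and 3.4% higher. DESeq2 also called 0 and 0 of the 42, against 1.91% lower and 2.34% higher over all genes. Shares of that size give few calls among 42 genes, so the count does not set these genes apart from the rest. By P below 0.05 alone, 1 of the 42 was lower (*Rrm1*) and 0 were higher, against 5.54% and 5.11% of all genes. With Benjamini-Hochberg adjustment 0 of the 42 passed by edgeR, where the lowest adjusted P was 0.423, and 0 of all 17465 genes passed (0%). DESeq2 passed 0 of the 42 and 0.892% of the genes for which it gave an adjusted P.

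The direction of the small differences leaned to lower. The mean was lower in BLM+HBO for 29 of the 42 genes and higher for 13, against 48.8% lower among all genes, and the median log2 fold change was -0.08 (all genes 0.01). The sizes were small, with a median absolute log2 fold change of 0.14 against 0.17 over all genes. The values of the groups did not overlap for 4 of the 42, all lower in BLM+HBO (*Rrm1*, *Rrm2*, *Ccne1* and *Chaf1a*), against 4.72% of all genes lower and 4.05% higher without overlap. Summed over the 42 genes, the level was 792, 778, 791 and 842 CPM (counts scaled to the TMM-normalized size of the library) in BLM 1 to 4 and 770, 727 and 795 CPM in BLM+HBO 1 to 3. BLM+HBO 3 lay inside the BLM range and the other 2 lay below it. The log2 ratio of the group means was -0.07.

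**Figure D1:**
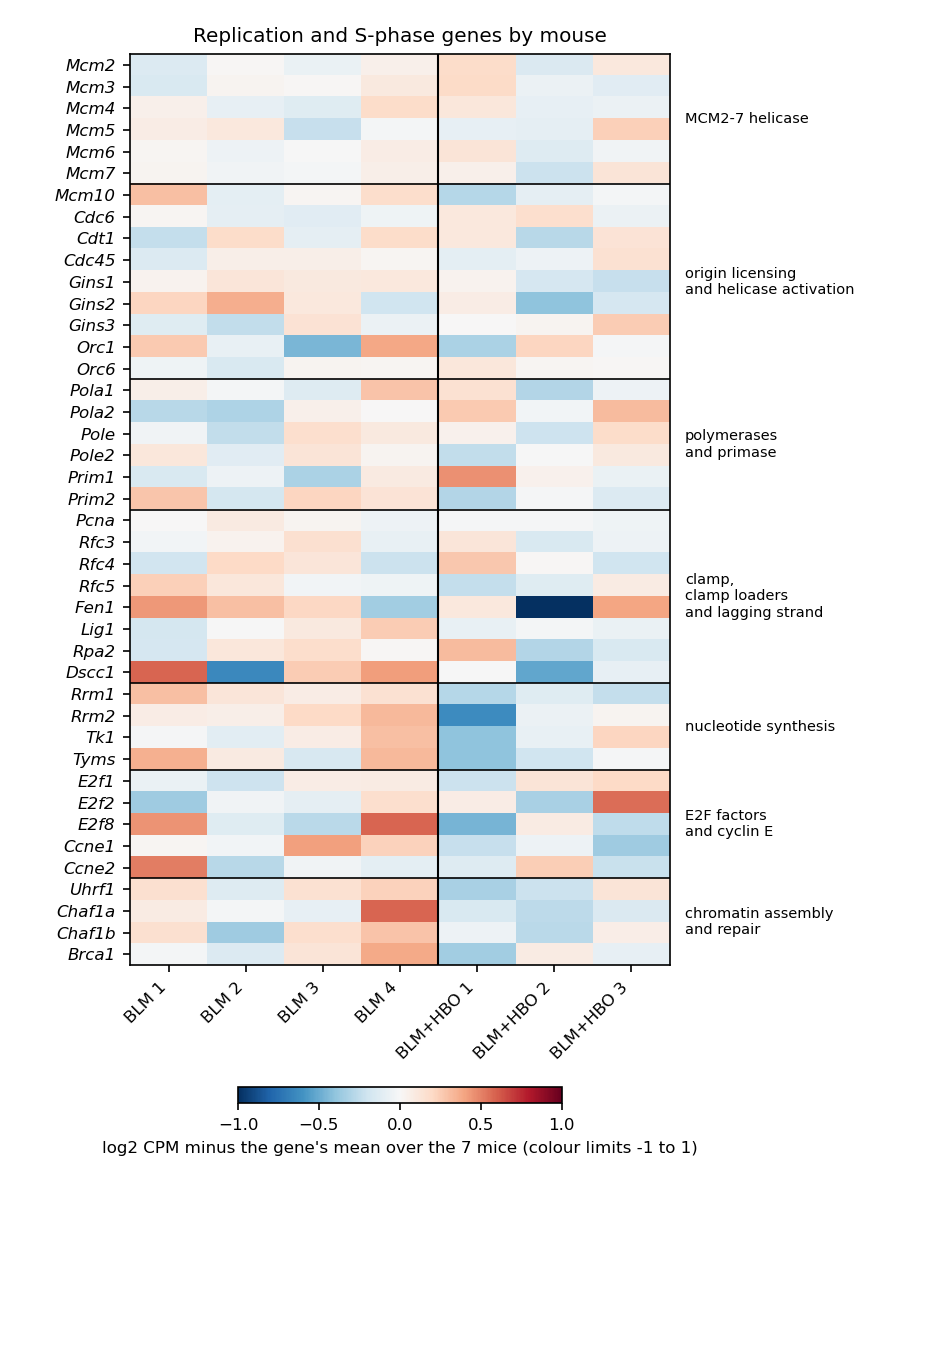
Log2 CPM of each of the 42 genes (rows, by role) in each mouse (columns), minus the gene's mean over the 7 mice, with colours limited to -1 and 1. The MCM2-7 rows are pale in all mice, and the nucleotide synthesis rows are blue in BLM+HBO 1.

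The precision differed between the genes. A single mouse gave between 9 counts (*Fen1* in BLM+HBO 2) and 2536 counts (*Pcna* in BLM+HBO 3) to a gene, and the standard error (SE) of the log2 fold change ran from 0.09 to 0.44 with a median of 0.18. For 21 of the 42 genes the 95% interval of the fold change lay within 1.5-fold in both directions, as it did for 47.1% of all genes. For the other 21 a change of 1.5-fold in at least 1 direction was not excluded by the interval. Between BLM mice the coefficient of variation of these genes ran from 2.71% to 33.6% with a median of 12.1%, and the median over all genes was 15.9%.

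**Figure D2:**
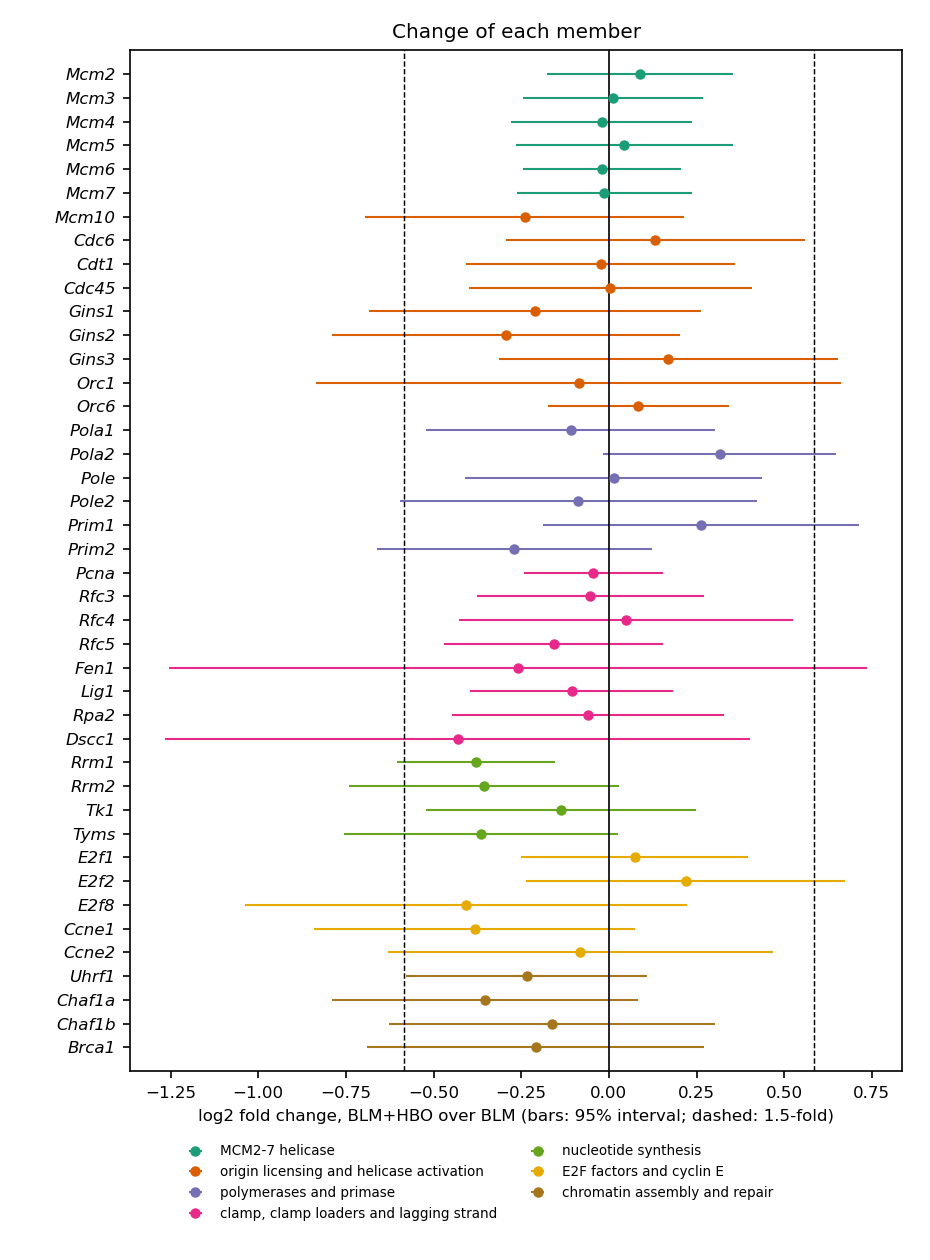
Log2 fold change of each of the 42 genes, BLM+HBO over BLM, with its 95% interval, coloured by role, and dashed lines at 1.5-fold. The interval of *Rrm1* lies to the left of 0, and all 6 MCM2-7 intervals lie between the dashed lines.

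The 6 subunits of the MCM2-7 helicase did not differ beyond the spread between mice. In CPM per kilobase of exon (FPKM), which allows genes to be compared, *Mcm2* had the lowest level of the 6 in every mouse (3.97 to 4.97). *Mcm3* had the highest level in 6 mice and *Mcm6* in BLM 1, and the highest was between 2.39 and 2.94 times the lowest in each mouse. This order depends on the exon length, which is 6956 bases for *Mcm2* and 3589 to 4666 for the others, and in CPM without the length *Mcm5* was lowest in every mouse. The ratio per length in BLM+HBO 1 and 2 (2.79 and 2.94) was close to that in BLM mice (2.81 to 2.93), with BLM+HBO 3 at 2.39. *Mcm3* gave 41.1, 46.6, 46.0 and 49.0 CPM in the BLM mice and 52.1, 43.7 and 42.2 CPM in the BLM+HBO mice. These ranges overlapped, with the highest and a low value both in BLM+HBO. The log2 fold changes of the 6 subunits lay between -0.02 (*Mcm4*, SE 0.12) and 0.09 (*Mcm2*, SE 0.12), and all 6 intervals lay within 1.5-fold. With upper-quartile factors, *Mcm4*, *Mcm6* and *Mcm7* turned from just below to just above 0.

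Among the 9 genes for origin licensing and helicase activation, the mean was lower in BLM+HBO for 5 and higher for 4, with a median log2 fold change of -0.02. *Orc6*, an origin recognition subunit and the highest of the 9 per length (8.60 FPKM over the 7 mice), gave 20.6, 19.1, 21.6 and 21.4 CPM in BLM and 23.0, 21.4 and 21.4 CPM in BLM+HBO. Its groups overlapped, and its log2 fold change was 0.08 (SE 0.12). *Cdc6* and *Cdt1*, which load the helicase, had log2 fold changes of 0.13 (SE 0.19) and -0.02 (SE 0.17). *Cdc45*, which completes the helicase, stood at 0.00 (0.0042, SE 0.18). The GINS subunits went different ways, with -0.21 for *Gins1* (SE 0.21), -0.29 for *Gins2* (SE 0.22) and 0.17 for *Gins3* (SE 0.22), and none passed the test. *Orc1*, the ATPase of the origin recognition complex, was low, at 1.10 to 2.05 CPM in BLM and 1.22 to 1.82 CPM in BLM+HBO, and *Mcm10*, which helps to start the helicase, had a log2 fold change of -0.24 (SE 0.20). Of the exon bases of *Gins2*, 67.3% are shared with *Gse1*, and reads there were left out by the counting.

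The 6 polymerase and primase genes were split, 3 with a lower and 3 with a higher mean. *Pola2*, the B subunit of DNA polymerase alpha and the highest of the 6 per length (2.56 FPKM), gave 17.3, 16.9, 21.7 and 21.1 CPM in BLM and 25.2, 20.6 and 26.1 CPM in BLM+HBO. BLM+HBO 1 and 3 lay above all BLM mice and BLM+HBO 2 lay among them. Its log2 fold change of 0.32 (SE 0.15) was the largest increase among the 42 genes, and it did not pass the test (unadjusted P = 0.0602, edgeR). *Pola1*, the catalytic subunit of the same enzyme, stood at -0.11 (SE 0.18). The primase subunits also pointed apart, with 0.26 for *Prim1* (SE 0.20) and -0.27 for *Prim2* (SE 0.18). For the leading strand polymerase epsilon, *Pole* stood at 0.01 (SE 0.19) and *Pole2* at -0.09 (SE 0.23).

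Of the 8 genes of the clamp, its loaders and the lagging strand, 7 had a lower mean and 1 a higher mean, none past the test, and the median log2 fold change was -0.08. *Pcna*, the sliding clamp, had the highest level per length of all 42 genes (41.0 FPKM) and the smallest SE. It gave 98.7, 104, 100.3 and 94.8 CPM in BLM and 97.4, 97.2 and 95.1 CPM in BLM+HBO. Every BLM+HBO value lay inside the BLM range, and the 95% interval of its log2 fold change (-0.04, SE 0.09) ran from -0.24 to 0.16. *Pcna* has named pseudogenes (*Pcna-ps1* and *Pcna-ps2*), as has *Tyms* (*Tyms-ps*), and reads shared with such copies were not examined. The clamp loader subunits had log2 fold changes of -0.05 (*Rfc3*, SE 0.14), 0.05 (*Rfc4*, SE 0.21) and -0.16 (*Rfc5*, SE 0.14), and *Dscc1*, part of an alternative loader that serves sister chromatid cohesion, stood at -0.43 (SE 0.37). The last value is the largest decrease among the 42, in a gene with 17 to 43 counts per mouse, the lowest level per length of all (0.366 FPKM) and the widest spread between BLM mice. *Lig1*, the ligase that joins Okazaki fragments, and *Rpa2*, of the protein that coats single-stranded DNA, stood at -0.11 (SE 0.13) and -0.06 (SE 0.17). *Fen1*, the flap nuclease, gave only 0.431 to 1.43 CPM, and 84.2% of its exon bases are shared with other genes, so the reads counted for it come from a small part of the gene.

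The 4 nucleotide synthesis genes were the role group with the lowest median, at a log2 fold change of -0.36. *Rrm1*, the large subunit of ribonucleotide reductase (chr7:102441695-102469771, plus strand), gave 76.6, 67.6, 65.6 and 69.1 CPM in BLM and 50.9, 57.1 and 52.7 CPM in BLM+HBO. All 3 BLM+HBO mice lay below all 4 BLM mice, with group means of 69.7 ± 4.82 (SD, n = 4) and 53.6 ± 3.19 CPM (SD, n = 3). The log2 fold change was -0.38 (SE 0.10, 95% interval -0.61 to -0.15), which is 0.768 times the BLM level and less than the 1.5-fold of the call rule. Its unadjusted P by edgeR's quasi-likelihood test was 0.0039, with a Benjamini-Hochberg adjusted P of 0.423, so it did not pass over all genes. Across the alternatives tried, its unadjusted P ran from 0.0025 to 0.0202 and its adjusted P from 0.119 to 0.802.

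The small subunit and the thymidine enzymes pointed the same way with more spread. *Rrm2*, the small subunit that rises in S phase and the highest of the 4 per length (7.75 FPKM), gave 22.2, 22.0, 24.2 and 26.4 CPM in BLM and 13.6, 20.3 and 21.6 CPM in BLM+HBO. The groups did not overlap, but BLM+HBO 3 lay next to the lowest BLM mouse (log2 fold change -0.36, SE 0.17, unadjusted P = 0.0664, edgeR). The rank of *Rrm2* per length depends on the exon length, 2771 bases for *Rrm2* and 11012 for *Rrm1*. In CPM without the length *Rrm1* was the highest of the 4 in every mouse. *Tyms*, thymidylate synthase, gave 18.8, 15.7, 13.2 and 18.5 CPM in BLM and 11.1, 12.8 and 14.6 CPM in BLM+HBO, with an overlap through BLM 3 and BLM+HBO 3 (log2 fold change -0.36, SE 0.17, unadjusted P = 0.0637). *Tk1*, thymidine kinase, gave 20.3, 19.0, 21.6 and 25.2 CPM in BLM and 15.4, 19.4 and 23.8 CPM in BLM+HBO. Only BLM+HBO 1 lay below the BLM mice for *Tk1*, and its log2 fold change was -0.14 (SE 0.17). Summed over the 4 genes, the level was 138, 124, 125 and 139 CPM in BLM and 91.1, 110 and 113 CPM in BLM+HBO, a sum to which *Rrm1* gives the most. All 4 genes had their lowest value in BLM+HBO 1, and the highest BLM+HBO value was in BLM+HBO 2 for *Rrm1* and in BLM+HBO 3 for *Rrm2*, *Tyms* and *Tk1*.

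**Figure D3:**
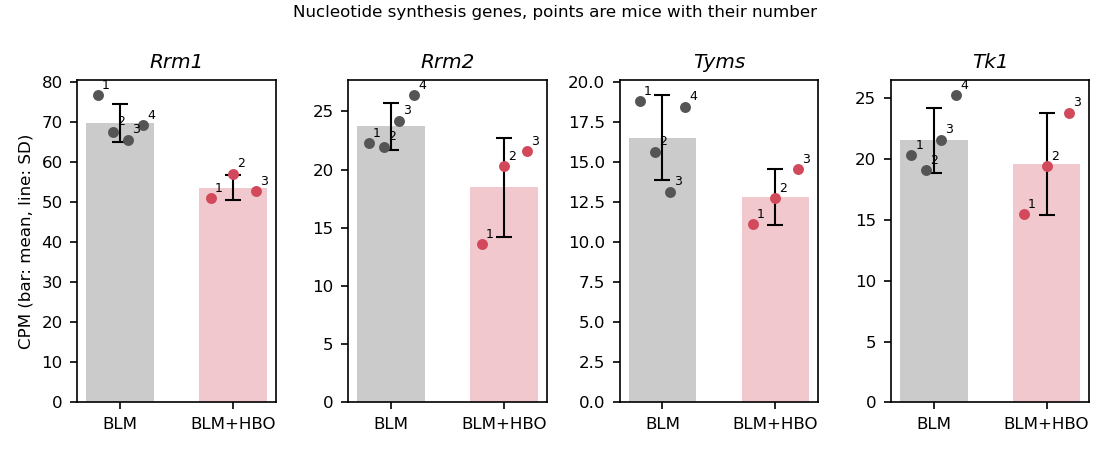
CPM of the 4 nucleotide synthesis genes, with bars for the group mean, lines for the SD and numbered points for the mice, 4 BLM and 3 BLM+HBO. All BLM+HBO points lie below all BLM points for *Rrm1* and *Rrm2*, and the groups overlap for *Tyms* and *Tk1*.

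The E2F factors and cyclin E genes did not move together. *E2f1*, an activator, stood at a log2 fold change of 0.07 (SE 0.14). *E2f2*, another activator and the highest of the 5 per length (7.18 FPKM), gave 26.8, 33.5, 32.2 and 38.6 CPM in BLM and 36.2, 27.4 and 50.7 CPM in BLM+HBO. Its highest value was in BLM+HBO 3 and a low one in BLM+HBO 2. Its log2 fold change was 0.22 (SE 0.20), or -0.049 without BLM+HBO 3. *E2f8*, a repressor among the E2F factors, stood at -0.41 (SE 0.28) and ran from 3.57 to 7.48 CPM. *Ccne1*, cyclin E1, gave 6.33, 6.14, 8.35 and 7.37 CPM in BLM and 5.32, 6.03 and 4.87 CPM in BLM+HBO. Its groups did not overlap, with BLM 2 and BLM+HBO 2 next to each other, and it did not pass the test (log2 fold change -0.38, SE 0.20, unadjusted P = 0.0921). *Ccne2*, cyclin E2, stood at -0.08 (SE 0.24), and 17.4% of its exon bases are shared with *Ints8*.

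All 4 genes of chromatin assembly and repair had a lower mean in BLM+HBO, with a median log2 fold change of -0.22, and none passed the test. *Uhrf1*, which brings the maintenance DNA methyltransferase to newly copied DNA and was the highest of the 4 per length (4.88 FPKM), gave 23.0, 18.8, 22.9 and 24.2 CPM in BLM and 16.4, 17.8 and 22.5 CPM in BLM+HBO. BLM+HBO 3 lay among the BLM mice and the other 2 lay below them (log2 fold change -0.23, SE 0.15). *Chaf1a*, the large subunit of chromatin assembly factor 1, gave 11.4, 10.7, 10.2 and 16.2 CPM in BLM and 9.69, 8.998 and 9.75 CPM in BLM+HBO. The groups did not overlap, and BLM 4 stood far above the other mice (log2 fold change -0.35, SE 0.19, or -0.18 without BLM 4). *Chaf1b*, its partner subunit, stood at -0.16 (SE 0.21) and *Brca1*, which acts in fork protection and recombination, at -0.21 (SE 0.21). Of the exon bases of *Chaf1a*, 52.5% are shared with *Ubxn6*.

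Replication genes outside the 42 were measured in the same mice. Of 38 other replication genes, which hold further subunits of the same complexes, histone and methylation factors and nucleotide enzymes, 15 had a lower and 23 a higher mean, with a median log2 fold change of 0.02, and 0 were called in either direction, where 2.89% of all genes were called lower and 3.4% higher. In lists of this size those shares give few calls, here and in the lists that follow. The gene with P below 0.05 was *Dctpp1*, named after its values were seen, a pyrophosphatase that clears unwanted nucleotides. It gave 9.42 to 11.4 CPM in BLM and 6.22 to 8.62 CPM in BLM+HBO, without overlap (log2 fold change -0.46, SE 0.18, unadjusted P = 0.0299, edgeR). The groups did not overlap for 2 of the 38 genes, both lower in BLM+HBO, against 4.72% of all genes lower without overlap. Of the 25 fork checkpoint and recombination genes found, 0 were called and the median was -0.03. Of the 14 p53 targets, which rise with DNA damage, 0 were called and the median was 0.08.

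The RB, CDK and CDK inhibitor genes upstream of S phase also held 0 calls among 25, with 20 lower means and a median log2 fold change of -0.12. By P below 0.05 alone 3 of the 25 were lower, against 5.54% of all genes, *Ccna2* and, named after their values were seen, *Cdkn2b* and *Cdkn2d*. *Ccna2*, cyclin A2 of S phase and G2, stood at -0.53 (SE 0.22). The inhibitors *Cdkn2b* and *Cdkn2d*, which block the CDKs of G1, stood at -0.42 (SE 0.11) and -0.38 (SE 0.11). Both were among the 4 of the 25 genes without overlap between the groups, all lower in BLM+HBO, against 4.72% of all genes lower without overlap. *Cdkn1a*, the p53-driven CDK inhibitor, stood at -0.12 (SE 0.20), and *E2f7*, a repressor like *E2f8*, at -0.40 (SE 0.29).

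**Figure D4:**
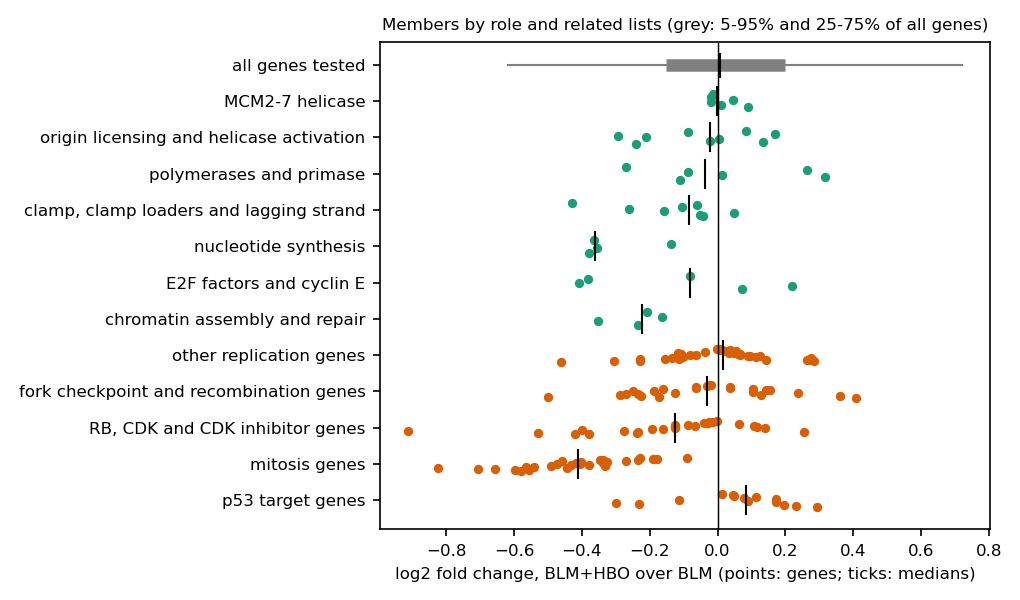
Log2 fold change, BLM+HBO over BLM, of each gene (points) in the role groups of the 42 genes and in related lists, with ticks at the medians and, for all tested genes, grey bars for the 5th to 95th and 25th to 75th percentiles. The mitosis genes lie below 0 without exception (median -0.41), and the replication genes lie on both sides of it.

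Genes of mitosis, the phase that follows, showed other values in the same libraries. All 28 had a lower mean in BLM+HBO, with a median log2 fold change of -0.41, and 4 of 28 were called lower (*Nuf2*, *Ccnb2*, *Ccnb1* and *Plk1*, -0.60 to -0.82), against 2.89% of all genes. *Cdk1*, the mitotic kinase, stood at -0.58 (SE 0.24), *Mki67*, a marker of cycling cells, at -0.44 (SE 0.19) and *Top2a*, topoisomerase II alpha, at -0.33 (SE 0.20). Summed over the list, the level was 535, 490, 491 and 567 CPM in BLM and 273, 346 and 553 CPM in BLM+HBO. BLM+HBO 3 was at the BLM level and the other 2 were far below it. Per mouse, the median of the centred log2 CPM over the list was -0.78, -0.39 and 0.28 in BLM+HBO 1 to 3, and -0.01, -0.09 and -0.03 over the 42 replication genes. The number of mitosis genes called lower rose to 21 when BLM+HBO 3 was left out, and it was 0 when BLM 1, BLM 4, BLM+HBO 1 or BLM+HBO 2 was left out and 2 when BLM 2 was. The number of replication genes called lower was 0 under each of these omissions, and their median without BLM+HBO 3 was -0.10. The difference between the lists was not tested.

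**Figure D5:**
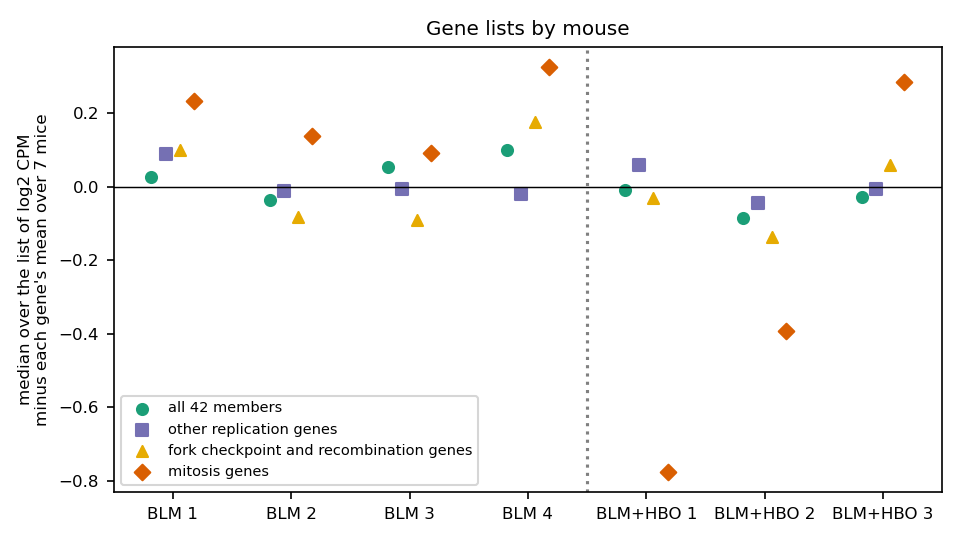
Median over each gene list of the log2 CPM minus each gene's mean over the 7 mice, by mouse. The 42 replication genes stay between -0.09 and 0.10 in all 7 mice, and the mitosis genes drop to -0.78 and -0.39 in BLM+HBO 1 and 2 and stand at 0.28 in BLM+HBO 3.

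Several marker lists of lung cell types moved between the same groups. The lung markers were present, with 0 genes of any list without a read. Over all tested genes, 2.89% were called lower and 3.4% higher, and the counts of each list stand beside these shares. Of 8 fibroblast markers 6 were called lower, with a summed level of 6293 to 10407 CPM in BLM and 2213 to 6719 CPM in BLM+HBO. Of 9 markers of monocytes and recruited macrophages 5 were called lower (5057 to 6790 against 1538 to 4375 CPM). In this list 2 had a higher mean, *Ly6c2* (log2 fold change 0.47, SE 0.40) and *Ccr2* (0.05, SE 0.27), and *Spp1* gave most of the sum in BLM. Of 7 alveolar macrophage markers 4 were called lower (710 to 2221 against 609 to 866 CPM), while the other 3 had a higher mean and *Chil3* gave most of the sum. All 6 B cell markers (54.1 to 104 against 104 to 221 CPM) and all 6 NK cell markers (6.06 to 20.4 against 20.8 to 81.1 CPM) were called higher, as were 10 of the 11 heart muscle genes tested (73.0 to 199 against 174 to 751 CPM). The NK cell sum was 81.1 CPM in BLM+HBO 1, but 20.8 and 21.1 CPM in BLM+HBO 2 and 3, next to BLM 4 at 20.4 CPM. These genes had low counts, down to 3 in a mouse (*Klre1*). Of 8 alveolar type 2 markers 1 was called higher, and 0 markers of alveolar type 1, endothelial, T, plasma, neutrophil and erythroid cells were called. The summed levels of the fibroblast, monocyte, alveolar macrophage and plasma cell lists, like *Rrm1*, were lowest in BLM+HBO 1. So was the sum of the mitosis genes (273 CPM). The B cell, T cell, NK cell, neutrophil and heart muscle sums were highest in that mouse. The part of these shifts in the levels of the replication genes was not tested.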

How the data were processed

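Right lung lobes of 4 BLM and 3 BLM+HBO mice were analysed by mRNA sequencing. The authors mapped paired reads to GRCm38 with HISAT2 and deposited raw counts per gene from featureCounts, with version 2.2.0 of both tools per the labels, while the study's methods give another version of featureCounts. At the default settings strand is not used, and reads that overlap several genes are dropped. Symbols came from the GENCODE annotation of the same build.

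Low counts were removed by filterByExpr with minima of 10 per library and 15 in total, and the rest were scaled by TMM (factors 0.964 to 1.036) and tested with edgeR 4.0.16 (quasi-likelihood, R 4.3.3) over all 17465 genes with Benjamini-Hochberg adjustment. A call needed a fold change above 1.5 and an unadjusted P below 0.05, the thresholds of the study. DESeq2 1.42.0 and limma 3.58.1 were alternatives, as were other factors, filters, a replicate block, a robust fit and the omission of each mouse. Intervals are 95% intervals of the fit. Libraries of a group differed by more than counting noise. P-values set the group difference against the spread between these mice, taken as independent, and whether mice shared a cage or day is not given. The fit draws each gene's spread toward a trend over all genes, with 9.57 degrees of freedom in total.

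Members and lists were chosen with earlier results of these data known. Every one of the 42 genes could be named, and of other lists the called genes with the smallest P and *Mki67*, *Top2a*, *Ccna2*, *Cdk1*, *Cdkn1a* and *E2f7*.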

Additional observations from a re-analysis of the deposited data

Results flagged for a closer look

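Among 44 sets of values with 4 mice, 1 stood out by the distance of a single mouse. The total count of BLM 4 lay apart from the other BLM libraries, with a gap of 0.970 of the group's whole range on a log2 scale, although the totals of the 4 libraries ran only from 18436336 to 19002242. Chance alone marks about 1 in 20 such groups. None of the replication genes was marked in this way.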

How the results depend on the processing

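The count of replication genes called lower was 0 under every alternative but one, in which P below 0.05 with any fold change gave 1 (*Rrm1*), and the counts called higher and called after adjustment were 0 under all. The median log2 fold change of the 42 genes ran from -0.13 to -0.03 over all alternatives and stayed below 0. Replicate numbers did not pair the mice (correlations of same-numbered mice -0.01, -0.07 and 0.16), and with the replicate block 0 genes were called lower and the median was -0.07, with *Rrm1* at -0.38 (unadjusted P = 0.0202). The block turned the sign of *Mcm4* (0.041), *Cdt1* (0.034), *Orc1* (0.064) and *Rfc4* (-0.019). Upper-quartile factors turned *Mcm4* (0.0051), *Mcm6* (0.0060), *Mcm7* (0.012) and *Cdt1* (0.0018), and *Cdc45* turned with DESeq2 (-0.0012) and without a filter (-0.0017). With 1 mouse left out, log2 fold changes crossed 0 for 18 genes, with ranges of -0.087 to 0.065 (*Mcm3*), -0.083 to 0.042 (*Mcm4*), -0.078 to 0.10 (*Mcm5*), -0.093 to 0.036 (*Mcm6*), -0.090 to 0.080 (*Mcm7*), -0.10 to 0.097 (*Cdt1*), -0.084 to 0.054 (*Cdc45*), -0.23 to 0.049 (*Orc1*), -0.31 to 0.0059 (*Tk1*), -0.088 to 0.11 (*Pole*), -0.17 to 0.0034 (*Pole2*), -0.13 to 0.0063 (*Rfc3*), -0.083 to 0.15 (*Rfc4*), -0.62 to 0.089 (*Fen1*), -0.26 to 0.058 (*Rpa2*), -0.012 to 0.19 (*E2f1*), -0.049 to 0.41 (*E2f2*) and -0.24 to 0.11 (*Ccne2*). Unadjusted P fell below 0.05 for *Rrm2* without a filter (0.0472) and without BLM+HBO 3 (0.0340), for *Tyms* without BLM 3 (0.0216) or BLM+HBO 3 (0.0439), for *Uhrf1* without BLM+HBO 3 (0.0394), and for *Pola2* with the block (0.0463), without BLM 3 (0.0379) or without BLM+HBO 2 (0.0308). The number of mitosis genes called lower was 7 with limma. The causes were not tested. The intervals of 21 of the 42 genes reached beyond 1.5-fold in at least 1 direction, among them *Dscc1*, *Orc1* and *Fen1*, with few counts, and *E2f2* and *Rrm1*, with many.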
